A study of Trichoderma atroviride with 42 samples.

Results

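The genes described here are the DNA replication and repair genes of the filamentous fungus Trichoderma atroviride that the authors listed as changed 30 min after their mycelium had been cut with a scalpel. They are the 28 genes of the authors' 30 min injury table whose product text, a short annotation of the encoded protein, names a DNA polymerase, DNA repair, mismatch repair, DNA replication, a replication factor, a DNA ligase, helicase or recombination protein, a topoisomerase or an MCM protein. They stand among 11786 genes counted, and among 2865 of the 3323 genes of that table that carry a product text. All 28 passed the filter on low counts, which left 9193 genes. Genes are given by the ID of the deposited files and by their product text. No gene length or position was available, so levels are compared between groups for a gene and never between genes.

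RNA was sequenced from wild-type mycelium grown in darkness for 36 h at 27 °C, on cellophane laid over potato dextrose agar. MI groups were cut all over with a sterile scalpel (mechanical injury). Dm groups were grazed for 10 min by larvae of the fruit fly Drosophila melanogaster, and Of groups for 10 min by the collembola (springtail) Orthonychiurus folsomi. Each treatment was collected after 30 or 90 min and after 4 or 8 h, which gives the names MI_30min to Of_8h. Untreated plates, opened for 2 min, form the early control CT0 and the late control CT8. CT0 is labelled as time 0, while the design text gives 30 min for it. The 42 libraries form 14 groups of 3, and by the design text each library is an independent biological replicate pooled from 3 technical ones. The title of the series sets the question, what attack by larvae does to regeneration and defence.

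DNA replication begins when the MCM complex, a ring-shaped helicase, is loaded at origins and then switched on with the help of Sld3 and Cdc45. Polymerases alpha, delta and epsilon copy the strands, Dna2 trims the flaps between fragments of the lagging strand, and DNA ligase seals the nicks. Mrc1 travels with the fork and passes on the signal when it stalls. MutS proteins recognise mismatched bases, while Rad50 and Rad52 act in the repair of double-strand breaks. Cut or bitten hyphae lose cytoplasm and regrow from the compartments next to the wound, and Trichoderma responds to injury by forming spores.

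Total counts ran from 1152096 to 5398093 per library with a median of 3899509, and the 4 lowest were Dm_8h replicate 2, Of_30min replicate 1, Dm_90min replicate 3 and CT0 replicate 2. The libraries of Dm_90min, Dm_8h and CT0 also correlated least with their group mates (lowest r 0.951, 0.954 and 0.965, against at least 0.977 in each other group). Each of the authors' 9 tables lay nearest to the group it is labelled with. Levels are CPM, counts per 1000000 after scaling of the libraries. They are relative to all RNA of a library, so fewer active hyphal compartments and less RNA per compartment cannot be told apart. P-values weigh a difference between groups against the spread between libraries.

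The members were chosen from MI_30min against a control that the table does not name, so the values of that group are a description. In the authors' deposited table their log2 fold changes run up to 1.48, with 27 above 0 (the smallest of these 0.397) and 1 below 0, at -0.722. Their false discovery rates in the authors' deposited table span 1.67e-10 to 0.00379, where the table ends at 0.004999. The member nearest to that limit is Tatro_003434-T1, an exonuclease text, and genes outside that table have no text. In CPM, MI_30min was the highest of the 14 groups for 25 of the 28 members, and for 22 of them all 3 MI_30min libraries were above every other library. These counts were not made for other genes, and the choice of members from this group favors them. The summed level of the 28 members was 2446 ± 69.7 CPM in MI_30min (SD, n = 3), while the means of the other 13 groups lay between 1278 and 1589 CPM. The median log2 fold change over CT0 was 0.71 for the 28 members and -0.03 for all genes, of which 22.5% were higher and 23.8% lower at an adjusted p under 0.05. Genes with a product text, listed by the authors as the members are, had a median of -0.15, with 47.3% higher and 46.6% lower. By role the medians were 1.04 for the 3 replication initiation and checkpoint genes, 0.84 for the 4 mismatch repair genes, 0.71 for the 11 genes with a polymerase text, 0.63 for the 4 MCM genes and 0.55 for the 4 recombination and repair genes.

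**Figure D1:**
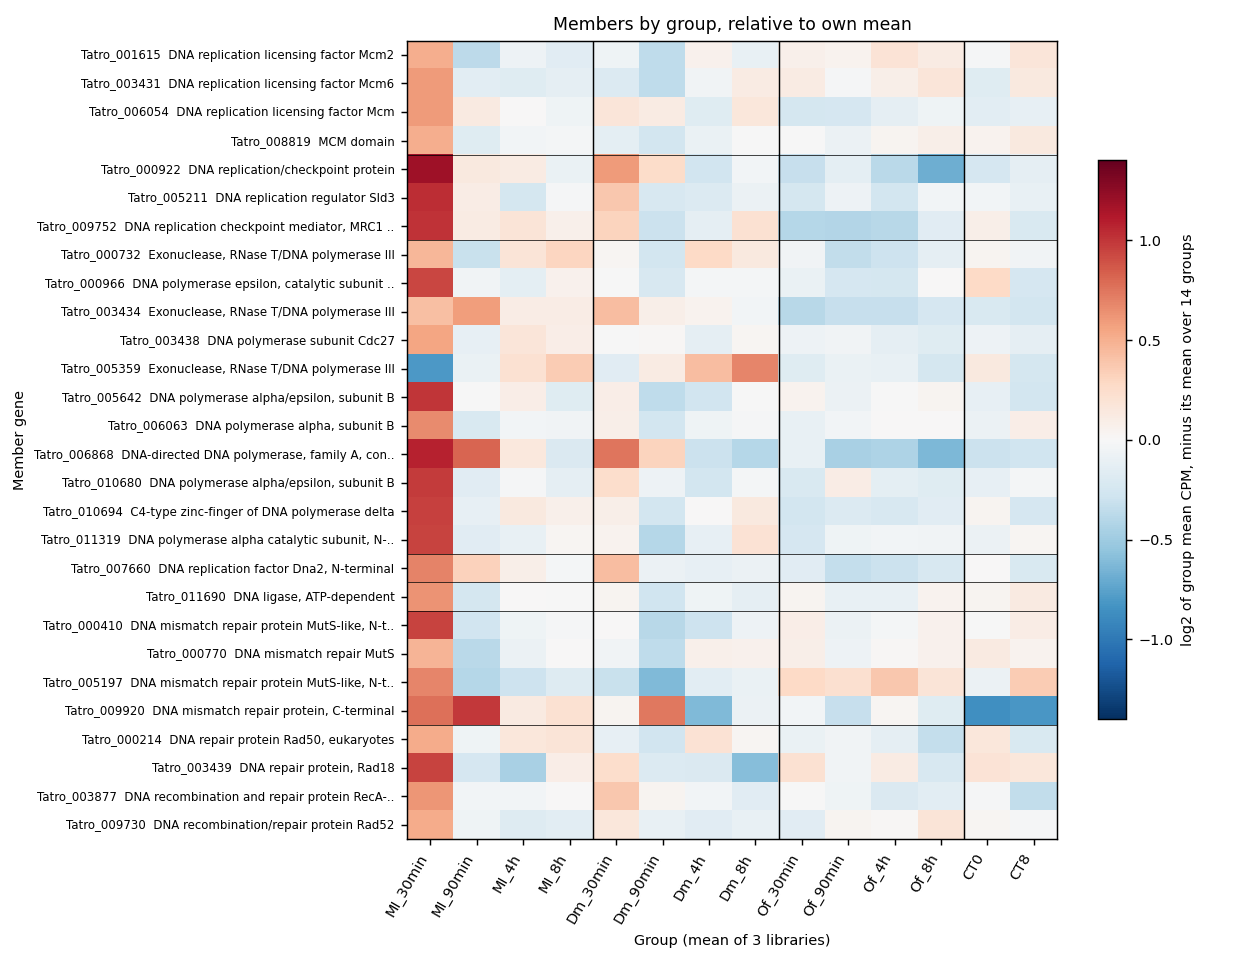
Heat map of the 28 members (rows, ordered by role) in the 14 groups (columns). Color is the log2 of the group's mean CPM minus the gene's own mean over the 14 groups. The column of MI_30min, the group that chose the genes, is the highest for 25 of 28 members, and the exonuclease-text gene Tatro_005359-T1 runs the other way.

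The members differed in how high they stood. Tatro_000922-T1, a replication and checkpoint protein by its text, had 38.6, 40.3 and 40.4 CPM in MI_30min, against 9.74, 12.5 and 22.1 CPM in CT0. Tatro_010694-T1, whose text names the zinc finger of DNA polymerase delta, had 242, 256 and 263 CPM in MI_30min, against 130, 129 and 144 CPM in CT0. Tatro_000214-T1, a Rad50, had 61.0, 61.3 and 59.4 CPM in MI_30min, against 46.0, 48.0 and 47.7 CPM in CT0. For all 3 genes each MI_30min library stood above each CT0 library, but the gap was wide for the checkpoint gene and narrow for Rad50. The exception among the 28 is Tatro_005359-T1, with an exonuclease text, which had 10.1, 14 and 15.9 CPM in MI_30min, against 26.5, 25.0 and 25.1 CPM in CT0.

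By 90 min after injury the levels were lower. The mean of MI_30min exceeded that of MI_90min for 25 of 28 members, with a median log2 ratio of 0.86, and that of Dm_30min for 26 of 28, with a median of 0.61. These are again descriptions, since MI_30min chose the genes. Against CT0, whose libraries may also have entered the choice, 4 members were higher and 5 lower in MI_90min (all genes 19.6% and 20.0%), and the median was -0.08. In Dm_30min 7 members were higher than in CT0 and 0 lower (all genes 19.1% and 20.4%, median of members 0.09), and in Dm_90min 1 was higher and 9 lower (16.9% and 17.0%, median -0.19). Genes with a product text, all listed by the authors at 30 min after injury, give 29.8% higher and 26.0% lower in MI_90min, 30.7% and 27.9% in Dm_30min, and 22.7% and 17.8% in Dm_90min. The count of 10 in Dm_90min is 3 without CT0 replicate 3, 4 without Dm_90min replicate 3, 5 without Dm_90min replicate 1, 6 without CT0 replicate 2, 4 without the 4 shallowest libraries and 0 when only Dm_90min and CT0 are fitted. The count of 7 in Dm_30min is 4 without CT0 replicate 2 or Dm_30min replicate 3, and that of 9 in MI_90min is 5 without MI_90min replicate 3. The authors' deposited table for Dm_90min lists 1971 genes, of which 9 are members, and all 9 are lower. They are Mcm2, Mcm6, another MCM gene, DNA ligase, 2 polymerase alpha genes and 3 MutS genes. For MI_90min the authors list 3 members as higher and 3 as lower among 2698 genes, and for Dm_8h 1 and 1 among 1111. For Dm_30min, among 2804 genes, they list 4 as higher and 1 as lower, the MutS-like Tatro_005197-T1. For MI_4h, MI_8h, Dm_4h and Of_30min they list 0 members among 798, 858, 542 and 136 genes. The directions of the other genes listed by the authors were not counted, so those of the members have no background here.

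After grazing by O. folsomi few members, and a small share of all genes, differed from control. In Of_30min 0 members were higher than in CT0 and 1 lower (all genes 6.2% and 3.7%), and in Of_90min 0 were higher and 2 lower (3.72% and 1.75%). In edgeR's test no member was called against CT8 in Of_4h (all genes 0.0218% higher, 0.185% lower) or in Of_8h (0.0% in both directions), with 1 member in each at an unadjusted p under 0.05, and DESeq2 also called 0. Between the controls, 0 members were higher and 1 lower in CT8 than in CT0 (all genes 5.09% and 3.32%). For injury and larvae at 4 and 8 h, the counts against CT8 were 2 higher and 3 lower in MI_4h (11.9% and 12.5% of all genes), 4 and 2 in MI_8h (10.9% and 11.6%), 3 and 2 in Dm_4h (10.8% and 9.78%), and 3 and 3 in Dm_8h (11.9% and 13.0%). The count of 5 in MI_4h is 1 without MI_4h replicate 1, and those of MI_8h and Dm_4h were smaller, at 2 or 3 and at 1 to 3, whichever library was left out. All these comparisons use CT0 or CT8 libraries, which may also stand behind the table that chose the members.

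There were 13 comparisons that hold no library of MI_30min, CT0 or CT8. The levels compared there do not come from those libraries, but the filter and the estimate of the spread use all 42 libraries. In these 13 comparisons, 59 of 364 pairs of member and comparison passed edgeR's quasi-likelihood test at an adjusted p under 0.05, and 8 members passed in none. Of all genes, between 1.51% (Dm_8h against MI_8h) and 45.7% (MI_8h against MI_90min) passed in a comparison, in either direction. Those 8 are Tatro_000410-T1 (MutS-like), Tatro_000966-T1 (polymerase epsilon), Tatro_003438-T1 (Cdc27, a polymerase delta subunit), Tatro_005642-T1 and Tatro_006063-T1 (polymerase B subunits), Tatro_008819-T1 (MCM domain), Tatro_009730-T1 (Rad52) and Tatro_011690-T1 (DNA ligase). How many of all genes passed in none was not counted. With both directions together, the share of members called lay below that of all genes in every comparison except Dm_30min against Of_30min. In that comparison 13 of 28 members were called, against 41.4% of all genes and 58.4% of genes with a product text. The most calls for members thus came in larvae against O. folsomi at 30 min. There 11 members were higher and 2 lower in Dm_30min, with a median of 0.14, while 20.3% of all genes and 29.9% of the genes with a product text were higher, and 21.1% and 28.5% lower. Larvae against O. folsomi gave 2 higher and 2 lower at 90 min (all genes 17.3% and 17.1%), 1 and 1 at 4 h (13.4% and 12.8%), and 3 and 0 at 8 h (10.7% and 11.3%). Injury against O. folsomi gave 6 higher and 3 lower at 90 min (21.4% and 21.9%, or 31.3% and 32.0% of genes with a product text), 5 and 3 at 4 h (16.8% in each direction), and 4 and 1 at 8 h (10.6% and 10.7%). Outside the 30 min comparison these shares lie near or below those of all genes. Comparisons at 1 time share their O. folsomi libraries.

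**Figure D2:**
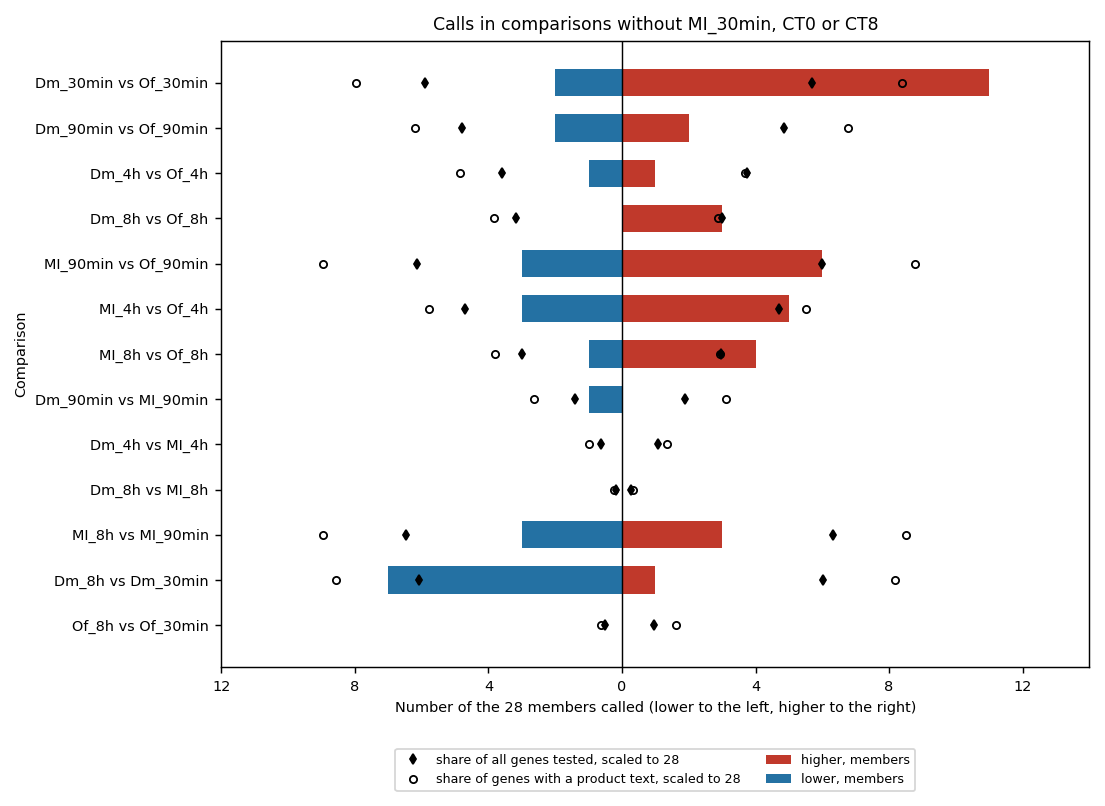
Number of the 28 members called higher (right) or lower (left) in each of the 13 comparisons without MI_30min, CT0 or CT8 libraries. Diamonds give the share of all genes tested, and open circles the share of genes with a product text, both scaled to 28. The bar for members higher in Dm_30min, at 11, extends past both marks, while most other bars end at or short of them.

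Among the genes of initiation and checkpoint, all 3 were higher in Dm_30min than in Of_30min. Tatro_009752-T1 carries an MRC1 domain, found in the checkpoint mediator of the replication fork. It had 88.7, 68.1 and 83.3 CPM in Dm_30min, against 46.5, 47.3 and 52.5 CPM in Of_30min, a log2 fold change of 0.71 ± 0.12 (SE; edgeR adjusted p = 1.296e-05). Its groups did not overlap, but the level in Of_30min was itself below CT0 (log2 -0.47 ± 0.13, edgeR adjusted p = 0.0148), as it was in Of_90min (-0.49 ± 0.12, edgeR adjusted p = 0.0122). Both of these calls ended without CT0 replicate 3 (adjusted p 0.101 and 0.127) and against the mean of both controls (0.0757 and 0.175), the Of_30min call also without Of_30min replicate 1 or 2 (0.0513 and 0.0672) and the Of_90min call without Of_90min replicate 2 (0.0766). Tatro_000922-T1 had 27.4, 26.4 and 25.2 CPM in Dm_30min, against 11, 12.6 and 18.2 CPM in Of_30min, so each larval library stood above each O. folsomi library (0.86 ± 0.21, edgeR adjusted p = 0.00123). Tatro_005211-T1, a Sld3, which brings Cdc45 to origins in yeast, had 58.1, 58.3 and 62.0 CPM in Dm_30min, against 33.9, 47.7 and 34.7 CPM in Of_30min (0.60 ± 0.14, edgeR adjusted p = 0.000514).

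The Mrc1-domain gene was also higher after injury than after O. folsomi. It had 73.9, 66.9 and 68.3 CPM in MI_90min, against 49.3, 46.0 and 49.9 CPM in Of_90min (log2 0.53 ± 0.12, edgeR adjusted p = 0.000441). CT0 had 60.7, 71.1 and 73.3 CPM, which overlaps MI_90min, and the gene was not called between these groups. In MI_4h it had 86.7, 65.0 and 66.8 CPM, against 47.2, 49.4 and 50.8 CPM in Of_4h (0.57 ± 0.11, edgeR adjusted p = 0.000204). CT8 had 54.2, 57.9 and 55.0 CPM, below each MI_4h library. In neither comparison with O. folsomi did the groups overlap. In Dm_8h it averaged 74.8 ± 4.18 CPM, against 57.7 ± 2.68 CPM in Of_8h (SD, n = 3 each; log2 0.37 ± 0.12, edgeR adjusted p = 0.0220), a call that was lost when Of_8h replicate 1 or 2, or Dm_8h replicate 1 or 2, was left out (adjusted p 0.0524 to 0.0987). Tatro_000922-T1 was higher in Dm_8h (16.9 ± 1.75 CPM) than in Of_8h (10.9 ± 2.18 CPM; edgeR adjusted p = 0.0444) and higher in MI_8h (16.3 ± 1.83 CPM) than in Of_8h (edgeR adjusted p = 0.0458, SD, n = 3 each). The Dm_8h call was lost without any of the libraries compared but Of_8h replicate 3 (adjusted p 0.0620 to 0.200), and the MI_8h call without any but MI_8h replicate 3 (0.0520 to 0.217).

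The 4 MCM genes differed among themselves. Tatro_001615-T1, an Mcm2, was lower than after O. folsomi in 4 of the 13 comparisons. It had 73.7, 76.6 and 66.4 CPM in MI_90min, against 94.9, 95.7 and 98.5 CPM in Of_90min (log2 -0.42 ± 0.10, edgeR adjusted p = 0.000611), and 78.0, 76.8 and 63.8 CPM in Dm_90min against the same O. folsomi libraries (-0.38 ± 0.10, edgeR adjusted p = 0.00300). All 6 libraries of injury and larvae at 90 min stood below the 3 of O. folsomi, and the larval call ended when only Dm_90min and Of_90min were fitted (adjusted p 0.0654). It was lower in MI_4h than in Of_4h (-0.26 ± 0.09, edgeR adjusted p = 0.0304) and in MI_8h than in Of_8h (-0.27 ± 0.10, edgeR adjusted p = 0.0395), calls that ended with library totals as the only scaling (-0.15 and -0.16, adjusted p 0.296 and 0.340). The MI_4h call also ended without MI_4h replicate 2 or Of_4h replicate 1 or 2 (adjusted p 0.106 to 0.167), and the MI_8h call without any library but MI_8h replicate 2 (0.0694 to 0.161). Tatro_006054-T1, another MCM gene, was instead higher: 97.1, 75.3 and 84.1 CPM in Dm_30min, against 56.0, 62.5 and 73.7 CPM in Of_30min (0.40 ± 0.13, edgeR adjusted p = 0.0109), and 83.5 ± 13.7 CPM in MI_90min, against 64.5 ± 3.48 CPM in Of_90min (SD, n = 3 each; 0.39 ± 0.13, edgeR adjusted p = 0.0121). The Dm_30min call was lost without Of_30min replicate 1 or Dm_30min replicate 1 (adjusted p 0.0530 and 0.0628), and the MI_90min call without MI_90min replicate 1 or Of_90min replicate 3 (0.0719 and 0.0538). It was also higher in Dm_90min than in Of_90min (0.35 ± 0.13, edgeR adjusted p = 0.0318), which ended without replicate 2 or 3 of either group (0.0536 to 0.106). Tatro_003431-T1, an Mcm6, was lower in Dm_30min (56.6 ± 6.51 CPM) than in Of_30min (69.7 ± 2.98 CPM; SD, n = 3 each) at an edgeR adjusted p of 0.0498, and 11 alternatives ended that call. The gene with only an MCM domain text was called in none of the 13.

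**Figure D3:**
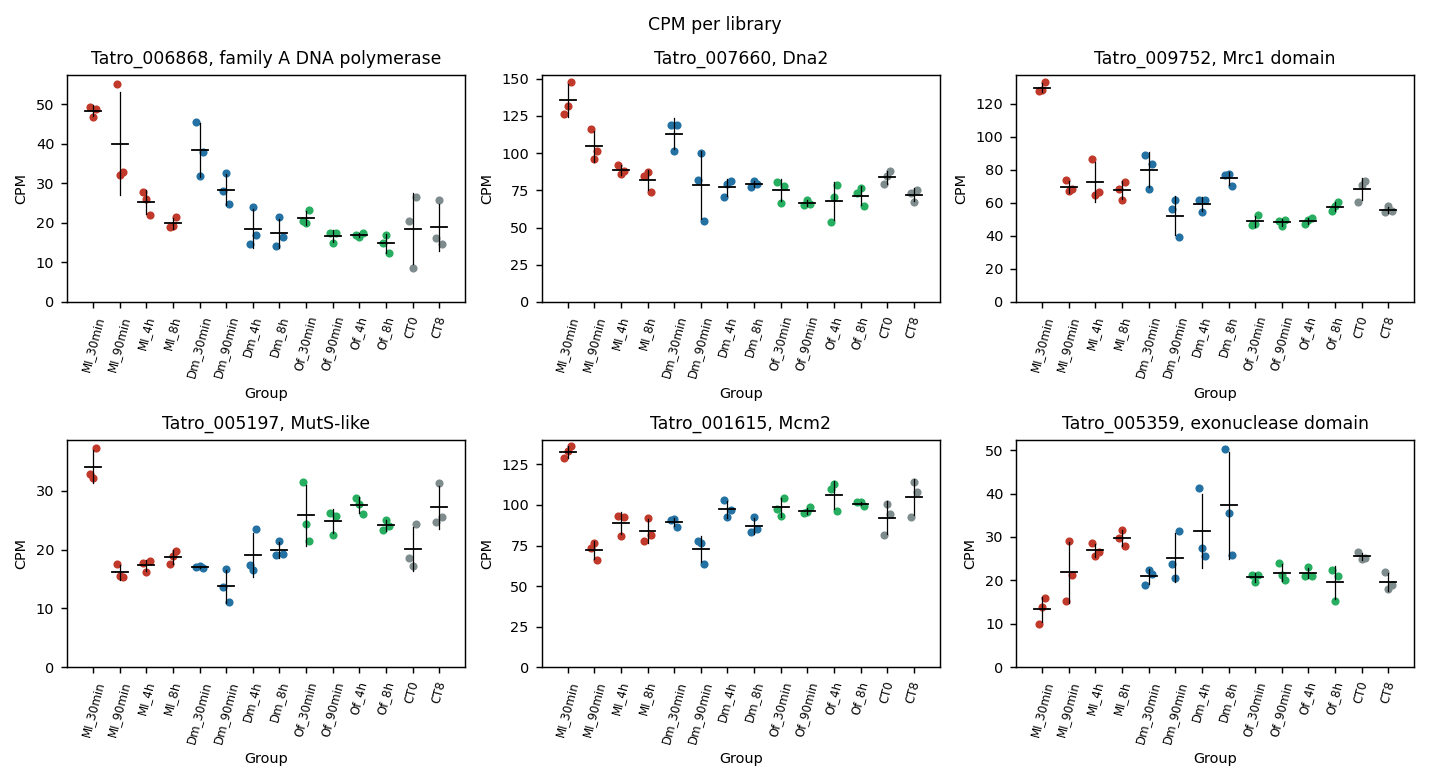
CPM of 6 members in every library of the 14 groups. Points are libraries, bars the mean of 3 and lines the SD. The family A polymerase Tatro_006868-T1 is high in MI_30min, MI_90min and Dm_30min. It is low in all groups of O. folsomi, and also in both controls, MI_8h, Dm_4h and Dm_8h. Tatro_005359-T1 is lowest in MI_30min and highest in Dm_8h.

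Of the genes with a polymerase text, the family A polymerase Tatro_006868-T1 was called most often. Family A holds the mitochondrial polymerase gamma and the repair polymerase theta, and the text does not say which this is. It had 45.4, 31.9 and 37.8 CPM in Dm_30min, against 20.5, 20.0 and 23.2 CPM in Of_30min (log2 0.85 ± 0.22, edgeR adjusted p = 0.00228). In MI_90min it had 55.1, 32.0 and 32.9 CPM, against 17.5, 14.9 and 17.4 CPM in Of_90min (log2 1.295 ± 0.225, 2.45-fold, edgeR adjusted p = 1.206e-05). In Dm_90min it had 28, 32.5 and 24.7 CPM, against the same O. folsomi libraries (0.81 ± 0.24, edgeR adjusted p = 0.00713). In each of these comparisons every library of larvae or injury stood above every O. folsomi library. MI_90min replicate 1 stood apart from its group mates, and the MI_90min call did not end when any 1 library was left out. In MI_4h the gene averaged 25.2 ± 3.07 CPM, against 16.9 ± 0.409 CPM in Of_4h (SD, n = 3 each; edgeR adjusted p = 0.0385), a call that all but 1 of the 6 single-library exclusions ended (adjusted p 0.0753 to 0.119).

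The level of the family A gene came down again. It had 18.9, 19.1 and 21.5 CPM in MI_8h, against 55.1, 32.0 and 32.9 CPM in MI_90min (log2 -1.03 ± 0.21, edgeR adjusted p = 7.697e-05), and 14.1, 21.4 and 16.4 CPM in Dm_8h, against 45.4, 31.9 and 37.8 CPM in Dm_30min (-1.20 ± 0.23, edgeR adjusted p = 3.758e-05). Within O. folsomi its 12 libraries ran between 12.3 and 23.2 CPM. The controls were similar, with 20.5, 8.64 and 26.4 CPM in CT0 and 16.2, 25.7 and 14.65 CPM in CT8. Other polymerase genes changed less. Tatro_010680-T1, a B subunit of alpha or epsilon, had 38.6, 34.8 and 36.3 CPM in Dm_30min, against 29.2, 25.9 and 24.9 CPM in Of_30min (0.48 ± 0.13, edgeR adjusted p = 0.00217). The delta zinc finger gene Tatro_010694-T1 averaged 139 ± 21.1 CPM in Dm_30min, against 109.6 ± 10.6 CPM in Of_30min (SD, n = 3 each; 0.36 ± 0.11, edgeR adjusted p = 0.0102), which ended without Dm_30min replicate 1 (0.25, adjusted p 0.0831). Its Dm_30min libraries, at 162.9, 122.6 and 131.6 CPM, overlapped those of CT0, at 129.7, 128.7 and 144.5 CPM. Its MI_4h level of 144 ± 19.9 CPM was above the 112 ± 5.90 CPM of Of_4h (SD, n = 3 each; 0.37 ± 0.11, edgeR adjusted p = 0.00714), which ended without MI_4h replicate 1 (0.27, adjusted p 0.0833). Tatro_011319-T1, the N-terminal part of the alpha catalytic subunit, was at the threshold in Dm_30min against Of_30min (0.29 ± 0.12, edgeR adjusted p = 0.0492) and was lost with the exclusion of any of 5 single libraries.

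Dna2, the nuclease and helicase of lagging-strand synthesis, was also higher in Dm_30min and MI_90min than after O. folsomi at the same time. Tatro_007660-T1 had 119, 101 and 119 CPM in Dm_30min, against 80.4, 66.5 and 77.8 CPM in Of_30min (log2 0.60 ± 0.13, edgeR adjusted p = 0.000308). It had 116, 96.0 and 102 CPM in MI_90min, against 65.0, 68.5 and 66.0 CPM in Of_90min (0.66 ± 0.13, edgeR adjusted p = 8.524e-05). The groups did not overlap in either comparison. In Dm_90min it had 81.9, 99.8 and 54.5 CPM and was not called against Of_90min (log2 0.30). In MI_4h it averaged 88.5 ± 3.32 CPM, against 67.7 ± 12.5 CPM in Of_4h (SD, n = 3 each; 0.38 ± 0.13, edgeR adjusted p = 0.0182), which ended without Of_4h replicate 1 or MI_4h replicate 1 (adjusted p 0.162 and 0.0582). It was lower in Dm_8h (79.1 ± 1.99 CPM) than in Dm_30min (113 ± 10.3 CPM; SD, n = 3 each; -0.52 ± 0.13, edgeR adjusted p = 0.00113). In MI_8h it averaged 81.9 ± 7.01 CPM, against 105 ± 10.5 CPM in MI_90min (SD, n = 3 each; -0.36 ± 0.13, edgeR adjusted p = 0.0184), which ended without MI_90min replicate 1 or MI_8h replicate 3 (adjusted p 0.112 and 0.0967) and with library totals as the only scaling (0.237). DNA ligase, Tatro_011690-T1, gave no call in the 13 comparisons and had 128, 117 and 101 CPM in Dm_30min, against 116, 115 and 116 CPM in Of_30min.

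The mismatch repair genes split. Tatro_005197-T1, MutS-like in its N-terminal part, was lower than after O. folsomi in 5 comparisons. It had 17.1, 17.3 and 16.8 CPM in Dm_30min, against 31.6, 24.4 and 21.6 CPM in Of_30min (log2 -0.55 ± 0.15, edgeR adjusted p = 0.00379). At 90 min it had 13.7, 16.6 and 11.1 CPM in Dm_90min and 17.6, 15.5 and 15.4 CPM in MI_90min, against 26.3, 22.5 and 25.8 CPM in Of_90min (-0.78 ± 0.16 for larvae, edgeR adjusted p = 0.000210, and -0.61 ± 0.15 for injury, edgeR adjusted p = 0.00125). All larval and injury libraries at 30 and 90 min named here stood below those of O. folsomi at the same time. At 4 h the differences were -0.50 ± 0.15 in Dm_4h (edgeR adjusted p = 0.00938) and -0.67 ± 0.14 in MI_4h (edgeR adjusted p = 0.000290). The Dm_4h call ended without Dm_4h replicate 1 or 2 (adjusted p 0.0585 and 0.0614). In MI_30min the same gene was high, at 32.8, 32.2 and 37.4 CPM, against 18.6, 17.3 and 24.3 CPM in CT0. In Dm_30min it was not called against CT0, though the authors list it as lower against a control that is not named.

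The other mismatch repair genes gave fewer calls. Tatro_000410-T1, also MutS-like, had 104, 79.7 and 84.9 CPM in Dm_30min, against 97.8, 87.6 and 101 CPM in Of_30min, which overlap, and it was called in none of the 13. Tatro_000770-T1, a MutS, was lower in MI_90min (46.0 ± 3.40 CPM) than in Of_90min (57.0 ± 2.30 CPM; SD, n = 3 each; -0.30 ± 0.13, edgeR adjusted p = 0.0498), a call that 11 alternatives ended. It was higher in MI_8h (59.9 ± 5.90 CPM) than in MI_90min (edgeR adjusted p = 0.0104, SD, n = 3), which ended without MI_8h replicate 2 (adjusted p 0.0672). Tatro_009920-T1, with a mismatch repair C-terminal text, was the only member under 10 CPM in every group. It had 5.47, 6.83 and 2.68 CPM in MI_90min, against 2.77, 1.27 and 2.01 CPM in Of_90min (1.32 ± 0.41, edgeR adjusted p = 0.00889). These overlap, and the call ended without Of_90min replicate 2 (1.05, adjusted p 0.0727).

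Of the 4 recombination and repair genes, 3 were called in at least 1 of the 13 comparisons, all but Rad52. Tatro_003877-T1, with the ATP-binding domain of the RecA family of strand-exchange proteins, had 57.7, 47.8 and 62.5 CPM in Dm_30min, against 46.5, 45.1 and 37.7 CPM in Of_30min (log2 0.39 ± 0.12, edgeR adjusted p = 0.00870), a call that ended without Of_30min replicate 3 (0.32, adjusted p 0.0689). It had 32.4, 38.8 and 44.6 CPM in Dm_8h, all below the 3 Dm_30min libraries (-0.52 ± 0.12, edgeR adjusted p = 0.000514). Tatro_003439-T1 has the text Rad18, the name of a ubiquitin ligase in budding yeast but formerly of another repair protein in fission yeast. It had 7.25, 9.38 and 9.55 CPM in Dm_8h, against 15.1, 15.1 and 16.8 CPM in Dm_30min (-0.83 ± 0.20, edgeR adjusted p = 0.000917). It was lower in MI_4h (9.66 ± 1.79 CPM) than in Of_4h (14.3 ± 1.05 CPM; SD, n = 3 each; -0.56 ± 0.18, edgeR adjusted p = 0.0163), which ended without MI_4h replicate 1 or 3 or Of_4h replicate 1 or 3 (adjusted p 0.0509 to 0.102). Rad50, Tatro_000214-T1, had 46.7, 46.2 and 51.6 CPM in MI_8h, against 35.2, 34.3 and 31.6 CPM in Of_8h, with no overlap (0.51 ± 0.15, edgeR adjusted p = 0.0157), and the call ended without MI_8h replicate 3 or Of_8h replicate 3 (adjusted p 0.0644 and 0.0577).

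Of the 28 members, 3 entered only because their text, exonuclease of the RNase T and DNA polymerase III type, shares words with the polymerases. Such domains also occur in enzymes that trim RNA. Tatro_003434-T1 had 32.0, 33.4 and 37.3 CPM in Dm_30min, against 22.9, 17.7 and 17.5 CPM in Of_30min (log2 0.86 ± 0.20, edgeR adjusted p = 0.000780), and 41.8, 40.3 and 32.5 CPM in MI_90min, against 18.4, 20.9 and 21.8 CPM in Of_90min (0.90 ± 0.19, edgeR adjusted p = 0.000230). In both, no library of the 2 groups overlapped. Tatro_000732-T1 came later, with 43.0, 49.3 and 56.0 CPM in Dm_4h, against 32.0, 36.0 and 32.3 CPM in Of_4h (0.57 ± 0.12, edgeR adjusted p = 0.000469), and was likewise higher in MI_4h (0.47 ± 0.12, edgeR adjusted p = 0.00192) and in MI_8h than in O. folsomi (0.42 ± 0.12, edgeR adjusted p = 0.00920). It was higher in MI_8h (50.5, 49.4 and 51.1 CPM) than in MI_90min (33.6, 34.2 and 30.7 CPM; 0.62 ± 0.12, edgeR adjusted p = 4.241e-05). The gene that was low in MI_30min, Tatro_005359-T1, had 50.4, 35.5 and 26.0 CPM in Dm_8h, against 22.4, 15.3 and 21.1 CPM in Of_8h (0.90 ± 0.21, edgeR adjusted p = 0.00136). That call and its rise over Dm_30min (0.81 ± 0.20, edgeR adjusted p = 0.00116) ended without Dm_8h replicate 1 (0.58 and 0.48, adjusted p 0.0592 and 0.0715), and the Dm_8h libraries are among those that correlate least with their group. It was also higher in MI_8h than in Of_8h (0.60 ± 0.20, edgeR adjusted p = 0.0281), which ended without Of_8h replicate 2 or MI_8h replicate 1 or 2 (adjusted p 0.0508 to 0.169). It was higher in MI_8h than in MI_90min (0.49 ± 0.20, edgeR adjusted p = 0.0424), which ended without any library but MI_90min replicate 2 (0.0531 to 0.369).

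Dm_30min against Of_30min and MI_90min against Of_90min share no library. Higher in both were 5 members, Tatro_003434-T1 (exonuclease), Tatro_006054-T1 (MCM), Tatro_006868-T1 (family A polymerase), Tatro_007660-T1 (Dna2) and Tatro_009752-T1 (Mrc1 domain), which is 45.5% of the 11 higher in the first and 83.3% of the 6 higher in the second. Lower in both was 1, the MutS-like Tatro_005197-T1, and 0 moved in opposite directions. Over all genes, the genes higher in both were 70.3% of those higher in the first and 66.7% of those higher in the second, and over genes with a product text 81.8% and 78.0%, so the members' shares lie below and above these on counts of 11 and 6. Under every alternative run, 8 of the 13 calls in Dm_30min against Of_30min held (Tatro_000922-T1, Tatro_003434-T1, Tatro_005197-T1, Tatro_005211-T1, Tatro_006868-T1, Tatro_007660-T1, Tatro_009752-T1 and Tatro_010680-T1), and so did 6 of the 9 in MI_90min against Of_90min (Tatro_001615-T1, Tatro_003434-T1, Tatro_005197-T1, Tatro_006868-T1, Tatro_007660-T1 and Tatro_009752-T1). Whether the members of the 2 comparisons differ was not tested.

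**Figure D4:**
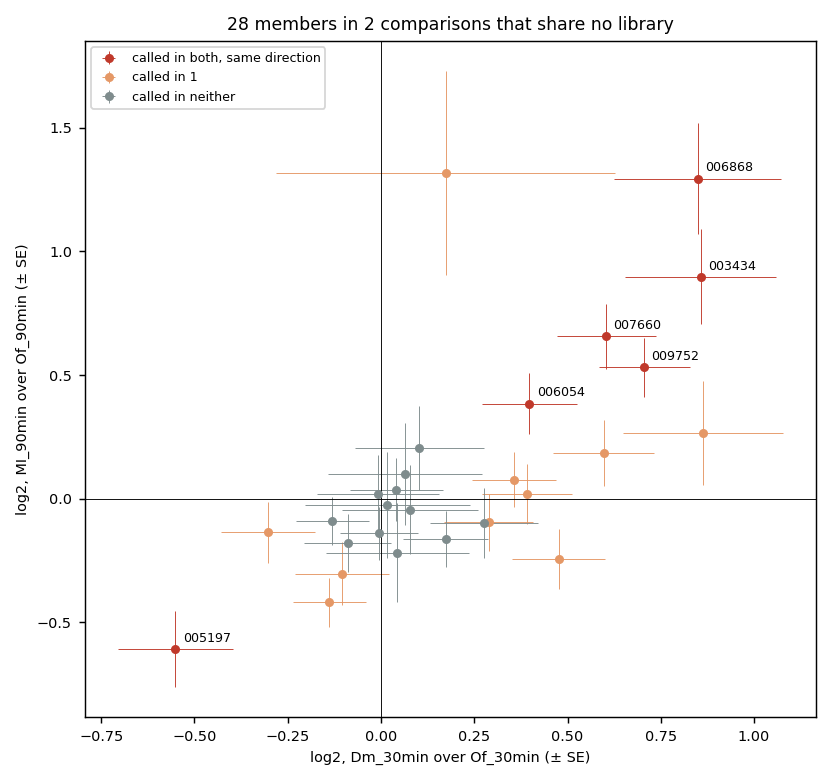
Log2 fold change of each member in Dm_30min over Of_30min (x axis) against MI_90min over Of_90min (y axis), with lines for the SE. The 5 genes called higher in both lie in the upper right and Tatro_005197-T1, called lower in both, in the lower left.

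Within the courses, 3 members were higher and 3 lower in MI_8h than in MI_90min (all genes 22.6% and 23.1%), and 1 was higher and 7 lower in Dm_8h than in Dm_30min (21.5% and 21.7%). Lower in both were the family A polymerase, Dna2 and Tatro_003434-T1, and the calls for Tatro_003434-T1 ended without MI_90min replicate 1 or 2 or MI_8h replicate 1 or 3 (adjusted p 0.0699 to 0.1003) and without Dm_30min replicate 3 or Dm_8h replicate 1 or 3 (0.0734 to 0.132). The larval course shares its Dm_30min libraries with the comparison to Of_30min. In O. folsomi, 0 members passed edgeR's test between Of_8h and Of_30min (all genes 3.44% higher and 1.85% lower), with 1 at an unadjusted p under 0.05 and 0 by DESeq2. Few members separated larvae from injury in Dm_90min against MI_90min, Dm_4h against MI_4h or Dm_8h against MI_8h. The shares of all genes called there were also small, at 11.7%, 6.11% and 1.51% in either direction. Dm_30min was not tested against MI_30min, the group that chose the genes. There the mean of MI_30min was the higher for 26 of 28 members, with a median log2 ratio of 0.61. The Mrc1-domain gene was the only member called in Dm_90min against MI_90min, a call that ended without Dm_90min replicate 3 and under other exclusions (all genes 6.73% higher and 4.99% lower). In Dm_4h against MI_4h (3.89% and 2.22%) and Dm_8h against MI_8h (0.914% and 0.598%) edgeR called 0 members, with 2 and 1 at an unadjusted p under 0.05 and 0 by DESeq2.

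Other genes of DNA synthesis and division were counted from lists of product texts. These texts come from the same 30 min injury table, so the lists were chosen on these samples and are not independent evidence of a direction in MI_30min. Their counts stand beside the shares of genes with a product text, which were 29.9% higher and 28.5% lower in Dm_30min than in Of_30min and 31.3% and 32.0% in MI_90min than in Of_90min (20.3%, 21.1%, 21.4% and 21.9% of all genes). For origin, clamp and checkpoint proteins, 5 of 18 were higher and 1 lower in Dm_30min than in Of_30min, and 5 were higher and 4 lower in MI_90min than in Of_90min, so the shares higher lie near, and the shares lower below, those of genes with a product text. Cdc45, Tatro_003641-T1, a partner of the MCM helicase, was among the higher (42.3 CPM in Dm_30min, against 30.1 CPM in Of_30min, edgeR adjusted p = 0.00922, and 38.1 CPM in MI_90min, against 29.5 CPM in Of_90min, edgeR adjusted p = 0.0281). PCNA, Tatro_007476-T1, the sliding clamp of the polymerases, was not called (134.5 CPM in Dm_30min, against 119 CPM in Of_30min, edgeR adjusted p = 0.267), nor were the primase subunits Tatro_000767-T1 and Tatro_010425-T1 (edgeR adjusted p 0.358 and 0.341). Thymidylate synthase, Tatro_001692-T1, which makes thymidine nucleotides, was not called either (26.5 CPM in Dm_30min, against 21.3 CPM in Of_30min, edgeR adjusted p = 0.146), and 0 of the 4 nucleotide supply genes were called there by edgeR, with 0 at an unadjusted p under 0.05 and 0 called by DESeq2. In MI_90min 1 of the 4 was lower than in Of_90min, a cytidine deaminase (Tatro_005385-T1).

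The same shares, 29.9% higher and 28.5% lower in Dm_30min and 31.3% and 32.0% in MI_90min, stand beside the next lists. Of 5 histone and chromatin assembly genes, 4 were higher and 0 lower in Dm_30min than in Of_30min, with a median of 0.47, and 2 were higher in MI_90min than in Of_90min. Histone H4, Tatro_011612-T1, had 1142 CPM in Dm_30min, against 544 CPM in Of_30min (log2 1.07 ± 0.13, edgeR adjusted p = 2.271e-08). The nucleosome assembly protein Tatro_010620-T1, a histone chaperone, had 267 CPM in Dm_30min, against 87.6 CPM in Of_30min (1.63 ± 0.21, edgeR adjusted p = 5.747e-08). Of 12 nucleases and excision repair genes, 7 were higher and 2 lower in Dm_30min, and 5 and 2 in MI_90min. Of 18 genes with cell cycle and mitosis words, which include 3 formaldehyde-activating enzymes matched by a shared word, 9 were higher and 1 lower in Dm_30min, and 10 and 2 in MI_90min. Kinetochore proteins were among the higher, such as Ndc80 (Tatro_004833-T1; 67.7 CPM in Dm_30min, against 47.6 CPM in Of_30min, edgeR adjusted p = 0.00247).

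A list of 40 ribosome biogenesis and RNA helicase genes, of another pathway, was counted beside the members. It comes from the same 30 min injury table, and 38 of the 40 were higher in MI_30min than in CT0. In Dm_30min 36 of 40 were higher than in Of_30min (29.9% of genes with a product text), with a median log2 fold change of 0.99, against 11 of 28 members and a median of 0.14. In MI_90min 39 of 40 were higher than in Of_90min (31.3% of genes with a product text), with a median of 1.27, against 6 of 28 members and a median of 0.00. At 8 h, 1 of the 40 was higher and 2 lower in MI_8h than in Of_8h (all genes 10.6% and 10.7%), and 2 were higher and 0 lower in Dm_8h than in Of_8h (10.7% and 11.3%). The difference between these lists was not tested.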

How the data were processed

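Per the labels' protocols, total RNA was made into libraries with a strand-specific kit. Per the submitters' processing notes, the tools were FastQC 0.11.6 for read quality, HISAT2 2.1.0 for alignment and HTSeq 0.14.1 for counting. Build, annotation and strand setting: not given in the sources used here. Reads of overlapping or near-identical genes may therefore be split or shared. The authors deposited raw read counts for 11786 genes as 12018 transcript models. Where a gene had several models (204 genes) their counts were identical, and 1 was kept. Per the file headers, the authors' 9 tables hold a log2 fold change, a log2 CPM, an F score, a p-value and a false discovery rate, a kind of q-value; no control is named there. The members and lists were chosen with earlier results of these data known.

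The test was that of edgeR 4.0.16 (R 4.3.3): default expression filter (9193 genes left), TMM scaling, and a quasi-likelihood fit with 1 coefficient per group over all 42 libraries. Adjustment ran over the genes tested in a comparison (Benjamini-Hochberg), and a gene was called at an adjusted p under 0.05. The SE is the size of the log2 fold change over the root of F. Log2 CPM used a prior count of 2. CT0 was the reference for 30 and 90 min and CT8 for 4 and 8 h; treatments were also compared with each other and over time. The named members are those highest in CPM or called most often in their role, and the member below 0 in MI_30min. Also named are the 3 with the largest change among the called in each comparison without MI_30min, CT0 or CT8. Other members named were chosen after their values were seen. The test was checked on simulated data. Alternatives were DESeq2 1.42.0, library totals as the only scaling, no filter, the mean of both controls, only the groups compared, a replicate block, and leaving out single libraries or the 4 shallowest. No sequence could be matched to the gene IDs, so none is printed.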

Additional observations from a re-analysis of the deposited data

Results flagged for a closer look

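The Mrc1-domain gene Tatro_009752-T1 differed between the effects of larvae and of injury at 90 min. The difference was -0.36 on the log2 scale (larvae minus injury, edgeR's quasi-likelihood test, adjusted p = 0.0398), with 56.0, 61.7 and 39.1 CPM in Dm_90min, against 73.9, 66.9 and 68.3 CPM in MI_90min. All 3 larval libraries stood below all 3 injury libraries. The lowest value belongs to Dm_90min replicate 3, among the shallowest libraries. Without it the difference was -0.25 (adjusted p 0.187), and without the 4 shallowest libraries -0.24 (0.218). The call also ended without MI_90min replicate 1, 2 or 3 or Dm_90min replicate 1 (adjusted p 0.0564 to 0.182), without the filter on low counts (0.0608) and when only these groups were fitted (0.399).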

How the results depend on the processing

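Of 666 repeats of called member values with a single library left out, 454 kept their direction and stayed past the threshold, 212 kept only their direction and 0 reversed. Of 716 repeats under the other alternatives the counts were 583, 133 and 0. The number of members called moved by more than 1.5 times as follows. With DESeq2 it was 5 in Dm_90min against CT0 (10 in the main test), 3 in Dm_4h against CT8 (5) and 2 in Dm_90min against MI_90min (1). With library totals as the only scaling it was 3 in Dm_30min against CT0 (7), 3 in Dm_4h against CT8, 3 in Of_30min against CT0 (1) and 11 in MI_8h against MI_90min (6). With the mean of both controls it was 2 in MI_4h (5), 2 in MI_8h (6), 11 in Dm_30min (7), 1 in Dm_4h, 3 in Dm_8h (6), 0 in Of_30min and 0 in Of_90min (2). Without the filter it was 4 in Dm_90min against CT0, 3 in Dm_4h against CT8, 1 in Of_90min against CT0, 0 in CT8 against CT0 (1), 3 in MI_8h against Of_8h (5) and 0 in Dm_90min against MI_90min. With only the groups compared it was 4 in MI_90min against CT0 (9), 8 in MI_4h against CT8, 10 in MI_8h against CT8, 3 in Dm_30min against CT0, 0 in Dm_90min against CT0, 1 in Of_90min against CT0, 0 in CT8 against CT0, 2 in Dm_90min against Of_90min (4), 6 in Dm_4h against Of_4h (2), 0 in Dm_8h against Of_8h (3) and 0 in Dm_90min against MI_90min. Without the 4 shallowest libraries it was 4 in Dm_90min against CT0, 2 in Of_30min against CT0, 2 in CT8 against CT0, 7 in Dm_90min against Of_90min and 0 in Dm_90min against MI_90min. The cause was not tested.

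Replicate numbers do not pair the samples: 3 of 78 same-numbered pairs correlated over 0.1 in their deviations, and in 0 of 26 comparisons did all pairs. With a replicate block the count was 1 in Of_90min against CT0, 11 in Dm_30min against Of_30min (13) and 8 in MI_90min against Of_90min (9), and no other count moved by more than 1.5 times.

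Leaving out single libraries gave these lowest and highest counts: 10 to 12 in Dm_30min against Of_30min, 3 to 7 in Dm_90min, 1 to 3 in Dm_4h and 1 to 3 in Dm_8h against O. folsomi; 7 to 9 in MI_90min, 4 to 9 in MI_4h (8 in the main test, 4 without MI_4h replicate 1 or Of_4h replicate 1) and 2 to 3 in MI_8h against O. folsomi; 0 to 2 in Dm_90min against MI_90min; 4 to 7 in MI_8h against MI_90min and 6 to 9 in Dm_8h against Dm_30min. Against controls they were 5 to 11 in MI_90min, 1 to 6 in MI_4h, 2 to 3 in MI_8h, 4 to 10 in Dm_30min, 3 to 10 in Dm_90min, 1 to 3 in Dm_4h, 4 to 6 in Dm_8h, 0 to 1 in Of_30min, 0 to 2 in Of_90min and 0 to 1 in CT8 against CT0. In MI_30min against CT0 they were 23 to 27 (28), only a description, since that group chose the members. Further counts against O. folsomi that moved by more than 1.5 times are those of Dm_90min without its replicate 2 (7), Dm_4h without its replicate 1 (1), Dm_8h without Of_8h or Dm_8h replicate 1 or 2 (1), and MI_8h (5 in the main test) without any single library.

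Library totals as the only scaling shifted the median of all genes by over 0.1 in MI_8h against CT8 (by 0.12), Dm_90min against CT0 (-0.13), Of_30min against CT0 (-0.17), Dm_30min against Of_30min (0.10), MI_4h against Of_4h (0.10), MI_8h against Of_8h (0.11), MI_8h against MI_90min (0.14) and Of_8h against Of_30min (0.15). They turned the higher and lower counts to 10 and 1 in MI_8h against MI_90min (3 and 3), 6 and 0 in MI_8h against CT8 (4 and 2), 4 and 2 in MI_4h against CT8 (2 and 3), 7 and 1 in MI_4h against Of_4h (5 and 3), 4 and 0 in MI_8h against Of_8h (4 and 1), 3 and 1 in Dm_8h against CT8 (3 and 3), 1 and 2 in Dm_4h against CT8 (3 and 2), 1 and 2 in Dm_90min against Of_90min (2 and 2), 2 and 1 in Dm_4h against Of_4h (1 and 1), and 2 and 5 in Dm_8h against Dm_30min (1 and 7). With DESeq2 they were 4 and 3 in MI_90min against CT0 (4 and 5), 1 and 2 in Dm_4h and 3 and 1 in Dm_8h against CT8, and 4 and 0 in MI_8h against Of_8h.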
